A study of Mus musculus with 8 samples.

Results

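Slc20a1, Smpd3 and Fam20c were the 3 genes examined, taken as the loci of the deposited table that carry exactly these names. Each name stood beside 1 locus, among 49782 gene names in all and 9915 genes that were tested. The 3 were picked with their difference between the genotypes already known. Their levels and fold changes are therefore given as a description, without a test, and only other genes were tested. The Has-tKO mice lacked Has1 and Has3 constitutively and lost Has2 after Cre induction, which together removes the enzymes that make hyaluronan. The other mice were wildtype C57Bl6/J. Mesenchymal stem cells (MSc) from femora and tibiae of 4 mice of each genotype, 1 library per mouse, were grown for 4 passages. Cells of both genotypes received 4-hydroxytamoxifen for 48 h in passages 2 and 3, so exposure to the drug was common to the groups, and RNA was taken on day 7 of osteogenic culture. The sources used here name neither the promoter that drives Cre, nor whether the wildtype mice carry it, nor the ages of the mice. The study addressed how loss of hyaluronan synthesis bears on osteogenic differentiation.

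Bone mineral is built from calcium and phosphate, and osteoblasts supply the phosphate by several routes. Slc20a1 (PiT-1) is a membrane protein that carries phosphate into the cell together with sodium. Smpd3 (neutral sphingomyelinase) splits the membrane lipid sphingomyelin into ceramide and phosphocholine, and phosphatases can then free phosphate from phosphocholine. Mice that lack functional Smpd3 have poorly mineralized bone. Fam20c is a kinase of the Golgi that attaches phosphate to serines of secreted proteins, among them the acidic matrix proteins that bind mineral, and its loss in humans causes Raine syndrome. Fam20c thus adds phosphate to proteins and does not itself deliver phosphate to mineral.

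RefSeq promoter entries on the build GRCm38.p6 matched 2 of the 3 genes, Slc20a1 and Fam20c. Smpd3 had no entry, so no stretch is shown for it. Each line gives the 250 bases before the gene start on the plus strand, 5′ to 3′, at chr2:129198523-129198772 for Slc20a1, the more upstream of its 2 listed starts, and at chr5:138754831-138755080 for Fam20c. Capitals mark matches to the motifs described next.
Slc20a1: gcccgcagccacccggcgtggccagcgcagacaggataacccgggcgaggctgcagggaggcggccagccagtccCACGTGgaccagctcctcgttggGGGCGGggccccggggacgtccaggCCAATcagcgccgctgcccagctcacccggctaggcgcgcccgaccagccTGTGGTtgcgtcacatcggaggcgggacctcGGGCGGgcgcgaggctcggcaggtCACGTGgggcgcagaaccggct
Fam20c: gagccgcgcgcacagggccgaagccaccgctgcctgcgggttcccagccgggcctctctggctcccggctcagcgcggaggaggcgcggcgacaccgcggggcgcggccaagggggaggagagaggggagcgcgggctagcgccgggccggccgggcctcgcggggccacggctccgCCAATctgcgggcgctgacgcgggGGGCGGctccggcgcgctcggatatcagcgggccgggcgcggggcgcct
The 9 motifs searched on both strands were the E-box CACGTG, the CCAAT box CCAAT, the TATA box TATAAA, the GC box GGGCGG, AP-1 TGANTCA, CRE TGACGTCA, RUNX TGTGGT, EGR GCGTGGGCG and the kappaB site, and none of the matches overlapped another. The Slc20a1 stretch held 2 E-boxes, which 6.02% of the 32851 promoter entries of the same length hold at least once. It also held 2 GC boxes, a motif present in 32.7% of entries, 1 CCAAT box (33.8%) and 1 RUNX match (14%). The Fam20c stretch held 1 CCAAT box and 1 GC box. The letters of the TATA, AP-1, CRE, EGR and kappaB motifs did not occur in either stretch. The stretch before the other Slc20a1 start held 1 GC box and none of the other motifs. The GC content was 75.2% for Slc20a1 and 81.2% for Fam20c, against a median of 52.4% over all entries. These matches describe letters and show no binding.

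Levels are FPKM as deposited, that is, sequenced fragments adjusted for transcript length and library size. Library totals lay between 198221 and 259871 FPKM and the number of sequenced fragments is unknown, so no counting error can be given. Wildtype 1 stood apart, with 8327 named genes at 1 FPKM or more where the other 7 libraries had 9677 to 10353. Its median-ratio size factor was 0.66, against 0.984 to 1.14 in the others. Values are therefore also given after division by these size factors, called scaled. The median log2 fold change of all tested genes was 0.16 as deposited and -0.03 scaled. Of the marker genes of osteoblasts, Alpl, Ibsp and Runx2 were present in all 8 libraries, while Sp7 and Col1a2 were not analysed here because no locus carries these names. Markers of macrophages were present too. All 12 tested macrophage markers had positive fold changes, as deposited and scaled, beside 73.3% and 44.8% of all tested genes. Their median log2 fold change was 1.0, and scaled 0.745. By limma 12 were higher at an unadjusted p under 0.05 (9 scaled), beside 14.4% of all tested genes (8.44% scaled). Cx3cr1 and Spi1 passed the test, where 1.58% of all tested genes passed as higher. After scaling Cx3cr1 passed and Spi1 did not (0.83, limma adjusted p = 0.0639). The 12 macrophage markers summed to 577 to 954 FPKM in Has-tKO libraries against 354 to 611 FPKM in wildtype libraries. None of them was at 0 in any library, and their part in the results that follow was not tested. Osteoblast markers summed to 205 to 287 FPKM in Has-tKO libraries and 273 to 564 FPKM in wildtype libraries. By limma 0 of 6 tested passed, with 1 higher and 2 lower at an unadjusted p under 0.05. After scaling Alpl and Ibsp passed as lower, with 0 higher and 3 lower at an unadjusted p under 0.05. Of 6 tested chondrocyte markers, Col9a1 and Col10a1 fell, where 0.192% of all tested genes passed as lower, and 5 were lower at an unadjusted p under 0.05. After scaling Sox9 fell as well (-1.01, limma adjusted p = 0.00981). Among the deleted genes, Has3 had 0.663, 0.576, 0.621 and 0.15 FPKM in Has-tKO libraries, against 0.236, 0.415, 0.466 and 0.394 FPKM in wildtype libraries. The groups overlapped, and since the deleted stretch is unknown, these levels do not check the genotype labels. Has1 and Has2 were not analysed here. In such mixed cultures, fewer cells of a type and less RNA per cell cannot be told apart.

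Slc20a1, the phosphate importer, was 2.28 times as high in Has-tKO as in wildtype. It had 11.1, 13.7, 8.78 and 9.76 FPKM in the 4 Has-tKO libraries, against 3.18, 5.20, 6.33 and 4.27 FPKM in the 4 wildtype libraries. The groups did not overlap, and the lowest Has-tKO library (replicate 3) stood above the highest wildtype library (also numbered 3). The means were 10.8 ± 2.14 FPKM in Has-tKO and 4.74 ± 1.34 FPKM in wildtype (SD, n = 4 each). On the log2(FPKM + 1) scale the difference was 1.06 with an SE of 0.20. After scaling, the Has-tKO libraries held 7.94 to 12.0 and the wildtype libraries 4.34 to 6.02, again without overlap, and the log2 fold change was 0.83 (SE 0.14).

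Smpd3, the sphingomyelinase, was lower in Has-tKO, with a mean 0.439 times that of wildtype. It had 4.86, 10.5, 6.25 and 6.55 FPKM in Has-tKO libraries, against 9.84, 20.3, 13.6 and 20.5 FPKM in wildtype libraries. As deposited the groups overlapped at 1 point, since Has-tKO 2 lay above wildtype 1. The means were 7.04 ± 2.42 FPKM in Has-tKO and 16 ± 5.23 FPKM in wildtype (SD, n = 4 each), a log2 fold change of -1.07 (SE 0.26). After scaling, wildtype 1 reached 14.9 and the groups no longer overlapped, with 4.36 to 9.17 in Has-tKO libraries and 12.9 to 20.8 in wildtype libraries. The scaled log2 fold change was -1.31 (SE 0.21).

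Fam20c, the Golgi kinase, was 2.14 times as high in Has-tKO as in wildtype and varied least of the 3 within a genotype. It had 10.2, 11.6, 12.1 and 9.87 FPKM in Has-tKO libraries, against 4.22, 5.61, 5.52 and 5.12 FPKM in wildtype libraries. The groups stood well apart, and the lowest Has-tKO library (replicate 4) was far above the highest wildtype library (replicate 2). The means were 11.0 ± 1.08 FPKM in Has-tKO and 5.12 ± 0.635 FPKM in wildtype (SD, n = 4 each), a log2 fold change of 0.97 (SE 0.15). After scaling, the Has-tKO libraries held 9.13 to 11.0 and the wildtype libraries 5.21 to 6.40, and the log2 fold change was 0.74 (SE 0.11).

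**Figure D1:**
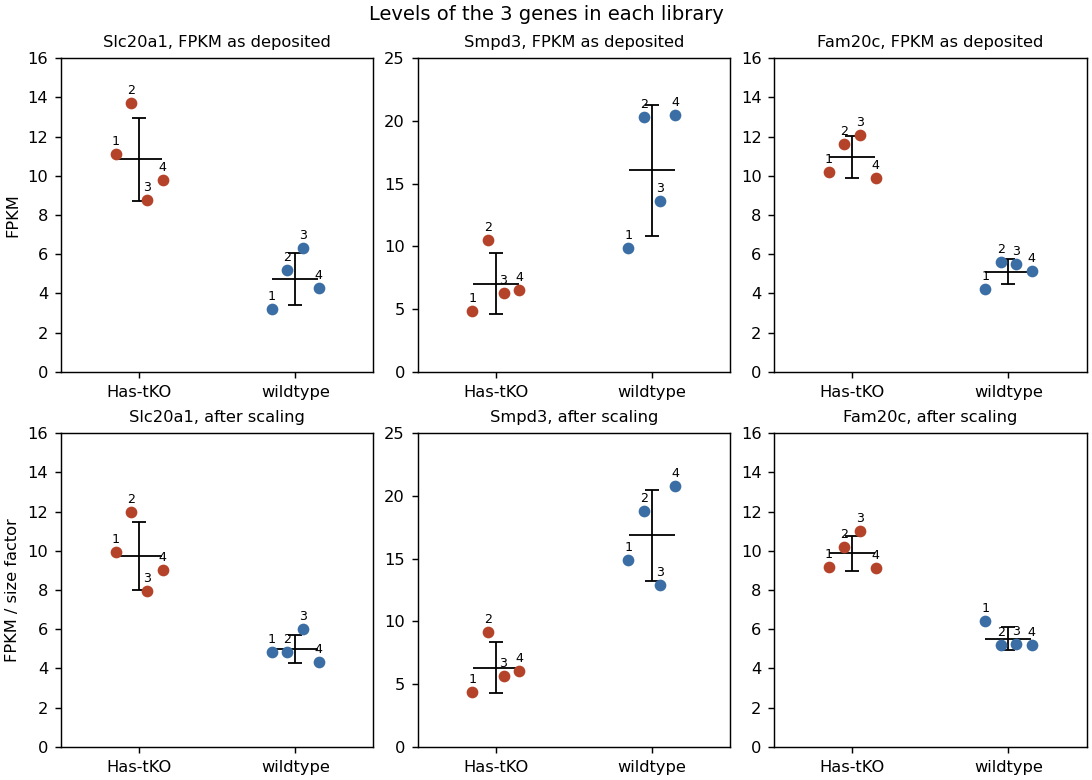
Levels of Slc20a1, Smpd3 and Fam20c in each library, as deposited FPKM (top) and after division by size factors (bottom). Points are libraries labelled by replicate number, long bars are means and whiskers are SDs of 4 libraries. Slc20a1 and Fam20c sit higher in all 4 Has-tKO libraries in both rows, while Smpd3 of Has-tKO 2 (10.5) lies above that of wildtype 1 (9.84) in the top row only.

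Across all 9915 tested genes, 176 passed the limma test at an adjusted p under 0.05 (1.78%), 157 higher (1.58%) and 19 lower (0.192%). After scaling, 135 were higher (1.38%) and 129 lower (1.32%) of 9784 genes, 2.7% in all. Slc20a1, Smpd3 and Fam20c were fitted with the rest, but as they were chosen on this contrast no call is given for them. At an unadjusted p under 0.05, 14.4% of all tested genes were higher and 2.3% lower as deposited, and 8.44% higher and 10.3% lower after scaling. Counts at an unadjusted p given for gene lists are to be read against these shares. The share of all tested genes whose groups did not overlap with Has-tKO higher was 12% as deposited and 5.57% scaled, and with Has-tKO lower 1.53% and 7.73%. In the order of log2 fold changes, Slc20a1 stood at place 121 and Fam20c at place 181 from the highest, and Smpd3 at place 13 from the lowest.

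The spread within a genotype differed among the 3 genes. Smpd3 had an SD of 0.407 among Has-tKO and 0.475 among wildtype libraries on the log2(FPKM + 1) scale, larger than that of 89.9% of tested genes in Has-tKO and 81.3% in wildtype. For Fam20c the SDs were 0.131 in Has-tKO and 0.156 in wildtype, larger than those of 26% of tested genes in Has-tKO and 15% in wildtype. Slc20a1 lay between, with 0.253 in Has-tKO and 0.345 in wildtype. In Has-tKO, replicate 2 was highest for Slc20a1 and Smpd3 and second for Fam20c, and in wildtype, replicate 1 was lowest for all 3 genes as deposited.

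The order of the 3 levels, which are per length, differed between the genotypes. In Has-tKO libraries the means of Fam20c (11.0 FPKM) and Slc20a1 (10.8 FPKM) were closer together than their spread, and Smpd3 was lower (7.04 FPKM). In wildtype libraries Smpd3 was highest (16 FPKM), and Fam20c (5.12 FPKM) and Slc20a1 (4.74 FPKM) again lay within their spread of each other. How transcripts were combined per locus is unknown, which limits such comparisons between genes.

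Ratios of 2 genes within a library do not depend on how libraries are scaled. The ratio of Slc20a1 to Smpd3 FPKM was 2.28, 1.31, 1.41 and 1.49 in Has-tKO libraries, against 0.323, 0.256, 0.466 and 0.209 in wildtype libraries. All 4 Has-tKO ratios were above 1 and all 4 wildtype ratios below it. Fam20c over Smpd3 was 2.10, 1.11, 1.94 and 1.51 in Has-tKO libraries, against 0.429, 0.277, 0.406 and 0.25 in wildtype libraries, a gap of the same kind. Slc20a1 over Fam20c was 0.994 ± 0.195 in Has-tKO and 0.915 ± 0.170 in wildtype (SD, n = 4 each), and the groups overlapped. Against Smpd3, both other genes thus separated the genotypes, while the ratio of Slc20a1 to Fam20c did not.

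**Figure D2:**
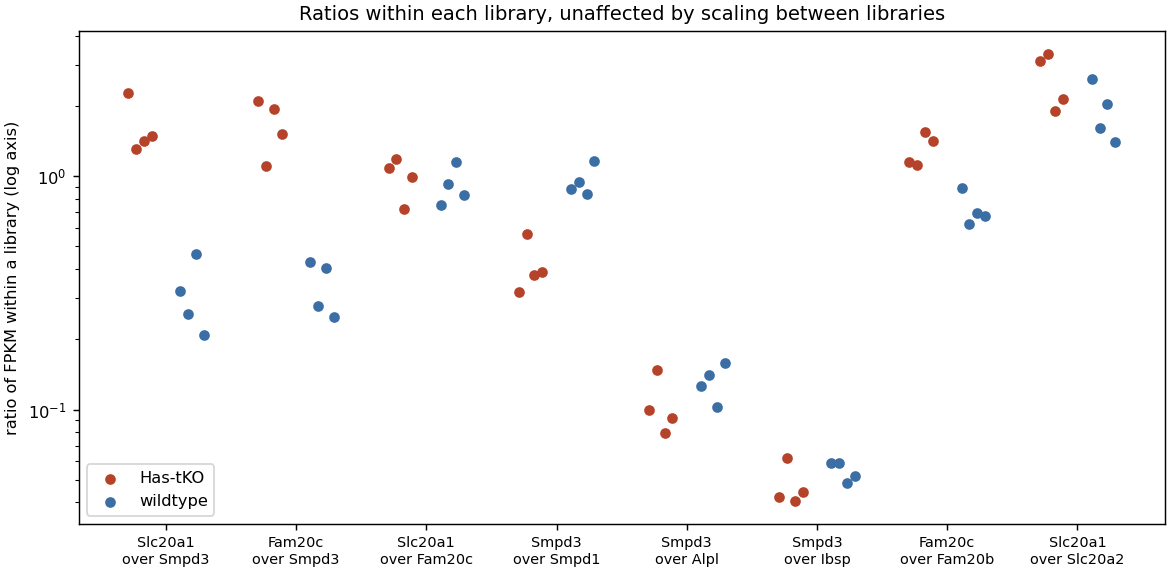
Ratios of FPKM within each library on a log axis, for pairs among the 3 genes and for each gene over a relative or partner, with Has-tKO points left of wildtype points in each pair. The ratios of Slc20a1 and Fam20c over Smpd3 separate the genotypes, whereas Slc20a1 over Fam20c, Smpd3 over Alpl, Smpd3 over Ibsp and Slc20a1 over Slc20a2 overlap. Each ratio includes a gene chosen on this contrast, and none was tested.

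Among the other phosphate carriers no tested gene passed. Slc20a2 (PiT-2), the closest relative of Slc20a1, had 3.58, 4.09, 4.60 and 4.54 FPKM in Has-tKO libraries, against 1.22, 3.23, 3.09 and 3.06 FPKM in wildtype libraries. Every Has-tKO library was above every wildtype library, but the difference did not pass (log2 fold change 0.55, SE 0.21, limma adjusted p = 0.212, scaled 0.37 and adjusted p = 0.208). The ratio of Slc20a1 to Slc20a2 was 2.63 ± 0.706 in Has-tKO and 1.91 ± 0.534 in wildtype (SD, n = 4 each) and overlapped. Xpr1, which exports phosphate from the cell, had 3.18 ± 0.614 FPKM in Has-tKO and 2.91 ± 1.26 FPKM in wildtype (0.15, SE 0.24, adjusted p = 0.789). The mitochondrial phosphate carrier Slc25a3 (0.34, adjusted p = 0.376) and the sugar phosphate antiporter Slc37a2 (0.58, adjusted p = 0.235) did not pass either. By limma 0 of 5 tested carriers other than Slc20a1 passed, with 2 higher at an unadjusted p under 0.05, and their median log2 fold change was 0.34 beside 0.16 for all tested genes. The kidney and gut type carriers Slc34a1, Slc34a2 and Slc34a3 were below the filter of 1 FPKM in 4 libraries, with Slc34a1 and Slc34a3 listed at 0 in all 8 libraries.

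None of the other tested sphingomyelinases passed. Smpd1, the acid sphingomyelinase of lysosomes, had 15.2, 18.6, 16.6 and 16.9 FPKM in Has-tKO libraries, against 11.1, 21.5, 16.3 and 17.7 FPKM in wildtype libraries, and the groups overlapped (0.05, SE 0.19, adjusted p = 0.915). Smpd2 (2.75 ± 0.416 FPKM in Has-tKO and 2.74 ± 0.198 FPKM in wildtype, adjusted p = 0.993) and Smpd4 (2.97 ± 0.311 FPKM in Has-tKO and 2.34 ± 0.619 FPKM in wildtype, adjusted p = 0.460), which also act at neutral pH, did not pass. The ratio of Smpd3 to Smpd1 was 0.411 ± 0.105 in Has-tKO and 0.955 ± 0.142 in wildtype (SD, n = 4 each), without overlap. That separation includes the value on which Smpd3 was chosen and was not tested.

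The wider sphingomyelin and ceramide list held 20 tested genes besides Smpd3, of which by limma 0 passed, with 6 higher and 0 lower at an unadjusted p under 0.05. After scaling 0 passed, with 5 higher and 0 lower. Their median log2 fold change was 0.47 beside 0.16 for all tested genes, and scaled it was 0.24 beside -0.03. In 18 of the 20 genes (17 scaled) the fold change was positive, beside 73.3% of all tested genes (44.8% scaled), whereas that of Smpd3 was negative. Ugcg, which makes glucosylceramide, had 13.0 ± 2.07 FPKM in Has-tKO and 7.68 ± 2.25 FPKM in wildtype (0.72, SE 0.22, adjusted p = 0.117). Sptlc2, a subunit of the enzyme that starts sphingolipid synthesis, gave 0.68 (adjusted p = 0.118), the sphingosine kinase Sphk1 0.45 (adjusted p = 0.154) and the sphingomyelin synthase Sgms1 0.54 (adjusted p = 0.154). Of the choline and phosphocholine list, 0 of 7 tested genes passed by limma, with 1 higher at an unadjusted p under 0.05, the choline kinase Chka (1.84 ± 0.132 FPKM in Has-tKO and 1.05 ± 0.333 FPKM in wildtype, 0.48, adjusted p = 0.157). Its median was 0.31 beside 0.16 for all tested genes. Phospho1, the phosphatase that acts on phosphocholine, and Sgms2 were not analysed here because no locus carries their names.

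Smpd3 lies on mouse chromosome 8 close to Has3, one of the genes deleted in Has-tKO, and this was examined through the genes around it. On RefSeq GRCm38.p6, 39 other protein-coding genes had a position within 1 Mb of Has3, of which 26 besides Smpd3 were tested. By limma 0 of the 26 passed, with 2 at an unadjusted p under 0.05 (0 scaled). Their log2 fold changes ran from -0.11 to 0.57 with a median of 0.16, beside 0.16 for all tested genes and -1.07 for Smpd3. Scaled, they ran from -0.27 to 0.36 with a median of -0.04, beside -1.31 for Smpd3. The 2 tested genes that start between Smpd3 and Has3 were Zfp90 (1.77 ± 0.359 FPKM in Has-tKO and 1.70 ± 0.417 FPKM in wildtype, adjusted p = 0.922) and Tango6 (1.37 ± 0.265 FPKM in Has-tKO and 1.56 ± 0.258 FPKM in wildtype, adjusted p = 0.747). Prmt7, a protein methyltransferase gene on the opposite strand that overlaps Smpd3 in GENCODE M21, had 6.18 ± 0.213 FPKM in Has-tKO and 5.08 ± 0.714 FPKM in wildtype (0.25, adjusted p = 0.429). Other loci overlapping Smpd3 there are Gm10629, on the opposite strand, at 0.331 ± 0.269 FPKM in Has-tKO and 0.132 ± 0.061 FPKM in wildtype, and Gm26786, on the same strand, which was not analysed here. Slc20a1 is overlapped on the opposite strand by Gm4430 (1.6 ± 0.377 FPKM in Has-tKO and 1.16 ± 0.329 FPKM in wildtype, 0.27, adjusted p = 0.466) and by 9830144P21Rik, which stayed at or below 0.181 FPKM in all 8 libraries, and none is listed over Fam20c. The libraries do not record strand, so reads from such overlaps cannot be assigned. Whether the engineered Has3 region affects Smpd3 itself cannot be told apart from the genotype, as every Has-tKO library carries it. Has3 itself averaged 0.503 ± 0.238 FPKM in Has-tKO and 0.378 ± 0.0995 FPKM in wildtype, below the filter (exact permutation p = 0.371, two-sided, n = 4 each).

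**Figure D3:**
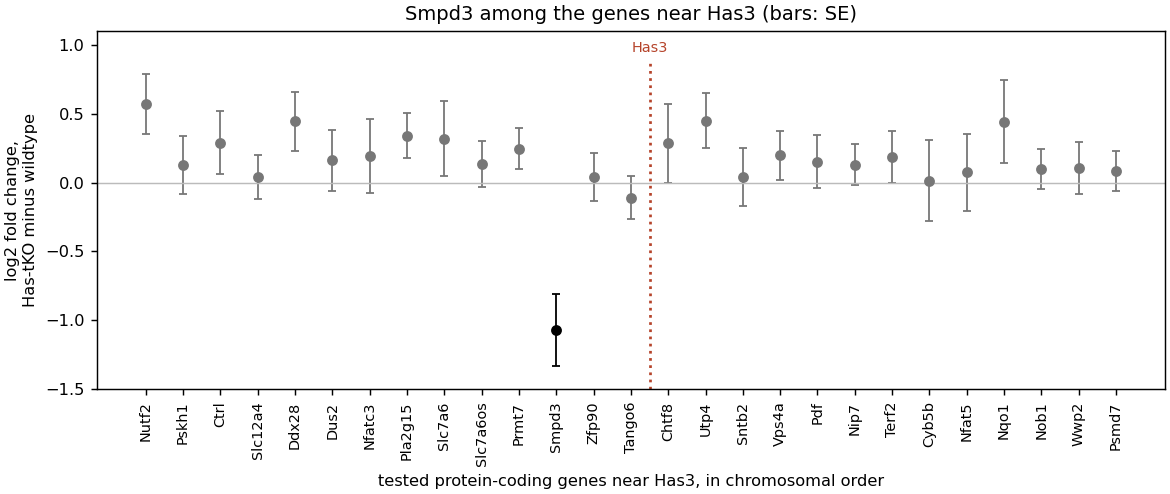
Log2 fold changes (Has-tKO minus wildtype, log2(FPKM + 1) scale, as deposited) of the tested protein-coding genes near Has3, in chromosomal order, with bars of 1 SE. Smpd3 (black) lies at -1.07, and its 26 neighbours (grey) lie between -0.11 and 0.57.

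None of the tested relatives of Fam20c passed. Fam20a, a partner of Fam20c without kinase activity of its own, had 3.31, 5.70, 5.05 and 3.41 FPKM in Has-tKO libraries, against 0.704, 3.86, 3.82 and 3.33 FPKM in wildtype libraries, and the groups overlapped (0.54, SE 0.31, adjusted p = 0.412). Fam20b, which phosphorylates the xylose that links sugar chains to proteoglycans, had 8.51 ± 1.46 FPKM in Has-tKO and 7.31 ± 1.82 FPKM in wildtype (0.21, SE 0.20, adjusted p = 0.611). The ratio of Fam20c to Fam20b was 1.15, 1.12, 1.55 and 1.41 in Has-tKO libraries, against 0.891, 0.623, 0.698 and 0.676 in wildtype libraries, without overlap. That of Fam20c to Fam20a was 2.6 ± 0.475 in Has-tKO and 2.61 ± 2.26 in wildtype (SD, n = 4 each) and overlapped. The overlap came through wildtype 1, as the other wildtype libraries held 1.45 to 1.54 and the Has-tKO libraries 2.04 to 3.09. Both ratios include the value on which Fam20c was chosen and were not tested. Pkdcc, a secreted tyrosine kinase active in skeletal growth, had 19.8 ± 3.56 FPKM in Has-tKO and 24.4 ± 3.99 FPKM in wildtype (-0.29, adjusted p = 0.446). By limma 0 of 7 tested secretory pathway kinases other than Fam20c passed and 0 had an unadjusted p under 0.05 as deposited, with a median of 0.21 beside 0.16 for all tested genes. Scaled, 1 was lower at an unadjusted p under 0.05 and the median was -0.02 beside -0.03.

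The proteins that Fam20c can phosphorylate, and other mineral-binding proteins, included genes with higher and with lower means in Has-tKO. Bone sialoprotein (Ibsp), an acidic protein of bone matrix, had 115, 169, 155 and 148 FPKM in Has-tKO libraries, against 167, 344, 280 and 394 FPKM in wildtype libraries (-0.95, SE 0.25, adjusted p = 0.0718). The groups overlapped narrowly through wildtype 1, and scaled, Ibsp fell (-1.21, SE 0.18, adjusted p = 0.0140). It also passed on unscaled values without wildtype 1 (-1.2, adjusted p = 0.00998). Dmp1, a matrix protein of late osteoblasts and osteocytes, had 9.20 ± 3.63 FPKM in Has-tKO and 5.47 ± 1.64 FPKM in wildtype (0.62, SE 0.26, adjusted p = 0.261). Sparc (osteonectin) had 923 ± 139 FPKM in Has-tKO and 1300 ± 117 FPKM in wildtype (-0.50, adjusted p = 0.118), and Dspp gave 0.51 (adjusted p = 0.212). Phex, an endopeptidase whose loss causes phosphate wasting, had 1.5 ± 0.667 FPKM in Has-tKO and 1.82 ± 0.664 FPKM in wildtype (-0.18, adjusted p = 0.711). Of 10 tested genes of this list, 0 passed as deposited by limma, with 2 higher and 2 lower at an unadjusted p under 0.05, and 4 of 10 fold changes were positive. After scaling Ibsp fell, 0 were higher and 4 lower at an unadjusted p under 0.05, and 3 of 10 fold changes were positive. The median was -0.15 beside 0.16 for all tested genes, and scaled -0.35 beside -0.03. Spp1, Bglap, Col1a1 and Col1a2 were not analysed here because no locus carries these names.

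Fgf23, a hormone that lowers blood phosphate and is itself a substrate of Fam20c, was below the filter and was named after its values were seen. It had 0.884, 3.26, 0.951 and 3.20 FPKM in Has-tKO libraries, against 0, 0.398, 0.484 and 0.452 FPKM in wildtype libraries. The groups did not overlap (2.07 ± 1.34 FPKM in Has-tKO and 0.334 ± 0.225 FPKM in wildtype), and as the gene was picked for these values no test is given. In Has-tKO the same 2 libraries, replicates 2 and 4, were highest for Fgf23 and Dmp1. The kidney-type Fgf23 co-receptor Kl was listed at 0 in all 8 libraries.

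The phosphatases and nucleotide enzymes that set the balance of phosphate and pyrophosphate differed in direction. Alpl, the alkaline phosphatase that degrades the mineral inhibitor pyrophosphate, had 49.0, 70.9, 78.7 and 71.0 FPKM in Has-tKO libraries, against 78.0, 144, 131 and 129 FPKM in wildtype libraries. Only Has-tKO 3 reached above wildtype 1, and Alpl passed after scaling (-1.07, SE 0.16, adjusted p = 0.0136) but not as deposited with all libraries (-0.82, SE 0.22, adjusted p = 0.0826). On unscaled values it passed without wildtype 1 (-1.01, adjusted p = 0.0169) and without wildtype 1 and Has-tKO 4 (-1.04, adjusted p = 0.0236). The ratio of Smpd3 to Alpl was 0.105 ± 0.0300 in Has-tKO and 0.132 ± 0.0232 in wildtype, and that of Smpd3 to Ibsp was 0.0472 ± 0.0100 in Has-tKO and 0.0546 ± 0.00527 in wildtype (SD, n = 4 each). Both ratios overlapped between the genotypes. The mean in Has-tKO was 0.439 times that in wildtype for Smpd3, 0.495 times for Ibsp and 0.558 times for Alpl. The ratio of Smpd3 to Runx2, a transcription factor of osteoblasts, did not overlap (1.55 ± 0.319 in Has-tKO and 2.71 ± 0.321 in wildtype). Enpp1, which makes pyrophosphate, had 11.8 ± 5.06 FPKM in Has-tKO and 8.36 ± 3.47 FPKM in wildtype (0.48, SE 0.33, adjusted p = 0.482). The exporter gene Ank was not analysed here.

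Of 7 tested genes of that list 1 passed as higher and 0 as lower, beside 1.58% and 0.192% of all tested genes. Entpd1, a surface enzyme that degrades ATP and that macrophages also make, rose, with 4.53, 4.06, 2.59 and 5.14 FPKM in Has-tKO libraries, against 0.867, 1.74, 2.29 and 1.16 FPKM in wildtype libraries (1.02, SE 0.22, adjusted p = 0.0426, scaled 0.85 and adjusted p = 0.0464). Its call was lost without Has-tKO 1, Has-tKO 2, Has-tKO 4, wildtype 2 or wildtype 4, at adjusted p = 0.169, 0.108, 0.113, 0.0702 and 0.158. Acp5, the acid phosphatase of osteoclasts, had 10.1 ± 4.63 FPKM in Has-tKO and 31.1 ± 18.1 FPKM in wildtype (-1.47, SE 0.37, adjusted p = 0.0653). On scaled values it fell, by 1.71 (adjusted p = 0.0494). That call was lost with size factors from named genes above 1 FPKM in every library (limma adjusted p = 0.0509). It was also lost with scaling and wildtype 1 left out (limma adjusted p = 0.0666). The osteoclast markers, Acp5 among them, summed to 20.1 to 43.7 FPKM in Has-tKO libraries and 30.2 to 104 FPKM in wildtype libraries. Of these markers 3 were tested and 4 were below the filter. By limma 0 of the 3 passed as deposited, with 0 higher and 2 lower at an unadjusted p under 0.05, and 1 fold change was positive. Scaled, only Acp5 passed and 0 fold changes were positive. The list's median was 0.25 beside 0.16 for all tested genes, and scaled 0.09 beside -0.03.

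In the list of phosphate sensing and hormone response, 2 of 7 tested genes rose and none fell, beside 1.58% of all tested genes higher and 0.192% lower. The list was chosen with earlier results of these data known, so this count is a description. Egr1, a transcription factor induced by many stimuli, extracellular phosphate among them, had 6.99, 8.20, 8.08 and 9.00 FPKM in Has-tKO libraries, against 0.828, 2.66, 2.58 and 1.64 FPKM in wildtype libraries (1.68, SE 0.22, adjusted p = 0.00634). It passed with each single library left out and after scaling (1.5, adjusted p = 0.00880). Fosl1, an AP-1 subunit, had 2.50 ± 0.447 FPKM in Has-tKO and 0.944 ± 0.446 FPKM in wildtype (0.87, SE 0.19, adjusted p = 0.0478). Its call was lost after scaling (0.72, adjusted p = 0.0658) and when any single library other than wildtype 3 was left out, at adjusted p from 0.0533 (without wildtype 1) to 0.192 (without Has-tKO 1). Fgfr1, a receptor of fibroblast growth factors, gave -0.24 (adjusted p = 0.470), and the inositol pyrophosphate kinase Ppip5k2 gave 0.26 (adjusted p = 0.504). The list's median was 0.17 beside 0.16 for all tested genes.

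Over the 7 lists, 84 of 107 genes other than the 3 carried a name in the table and 63 were tested. Of these, 3 rose (Entpd1, Egr1 and Fosl1) and none fell as deposited, and 2 rose (Entpd1 and Egr1) and 3 fell (Alpl, Acp5 and Ibsp) of 64 tested after scaling. The shares of all tested genes were 1.58% higher and 0.192% lower as deposited, and 1.38% higher and 1.32% lower scaled, so these counts rest on few genes. All 7 lists were chosen with earlier results of these data known. The median log2 fold change over the 63 genes was 0.26 beside 0.16 for all tested genes.

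**Figure D4:**
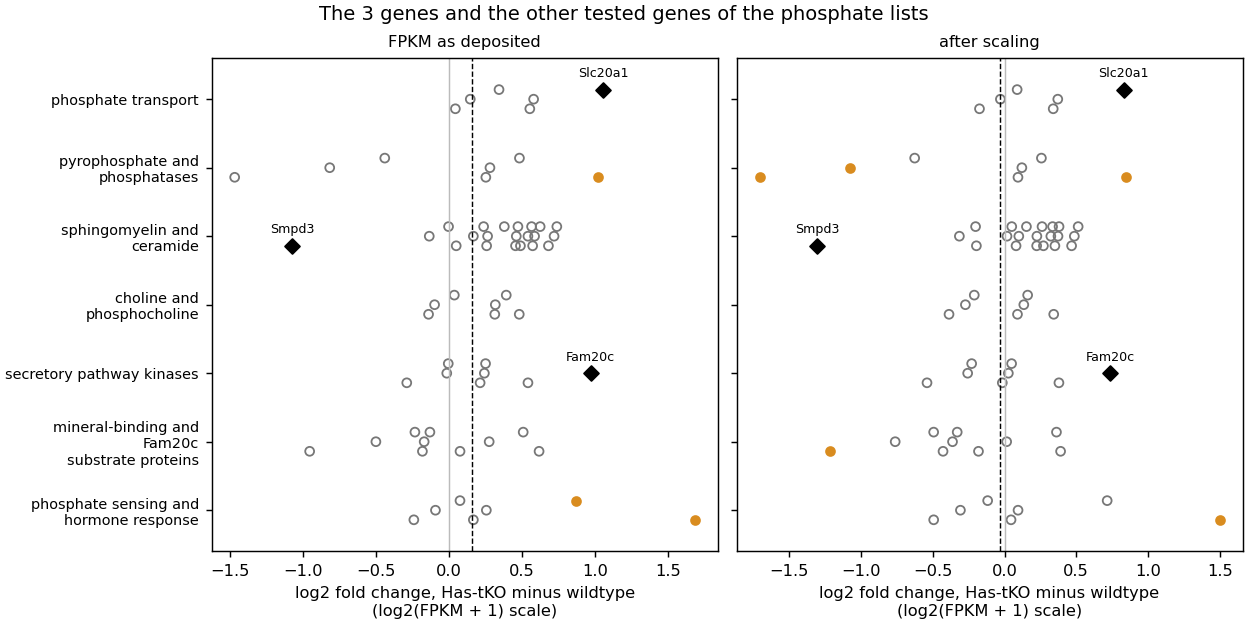
Log2 fold changes (Has-tKO minus wildtype, log2(FPKM + 1) scale) of the tested genes of 7 lists, as deposited (left) and scaled (right). Black diamonds are the 3 genes described, filled circles passed limma at an adjusted p under 0.05, open circles did not, and the dashed line is the median of all tested genes. Slc20a1 (1.06) and Fam20c (0.97) lie above every other tested gene of their lists, and Smpd3 (-1.07) lies below every other tested gene of its list. The 3 genes were chosen on this difference, so their places in the lists are a description.

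The genes with the most similar pattern were sought among all tested genes by Pearson's r of log2(FPKM + 1) over the 8 libraries. These r values include the difference between genotypes and the low library wildtype 1, and the 3 genes were chosen on that difference, so they are descriptions and no test of genotype is given for the genes found. For Slc20a1 they included Nin (r = 0.984), Glrx (0.982), Mink1 (0.978) and Fam177a (0.976). Mink1 had 9.24 to 11.1 FPKM in Has-tKO libraries, against 5.53 to 8.24 FPKM in wildtype libraries. Like Slc20a1 it was lowest in replicate 3 among Has-tKO libraries, an order that the search by similarity favours.

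For Smpd3 the 5 genes were the Wnt receptor Fzd2 (r = 0.979), the kinase Nuak1 (0.970), the ephrin receptor Ephb3 (0.967), the transcription factor Klf15 (0.964) and Ibsp (0.963). Fzd2, for example, had 28.8 ± 4.79 FPKM in Has-tKO and 41.9 ± 7.15 FPKM in wildtype, and Nuak1 had 10.3 ± 1.13 FPKM in Has-tKO and 17.5 ± 4.09 FPKM in wildtype (SD, n = 4 each). Both were highest in replicate 2 among Has-tKO libraries and in replicate 4 among wildtype libraries, as Smpd3 was. The search by similarity favours such a shared order, and Smpd3 was nearly level in wildtype 4 (20.5 FPKM) and wildtype 2 (20.3 FPKM).

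For Fam20c the 5 genes were Trp53 (r = 0.989), the prostaglandin transporter Slco2a1 (0.980), the NF-kappaB subunit Nfkb2 (0.979), the Notch target Hes1 (0.978) and the sulfotransferase Tpst2 (0.977), which like Fam20c modifies secreted proteins in the Golgi. With the mean of each genotype removed, r was 0.616 for Nfkb2 and from 0.878 (Trp53) to 0.921 (Hes1) for the others. These values too are as deposited and still include the low library wildtype 1. Scaled, wildtype 1 was the highest wildtype library for Fam20c (6.40), Trp53 (2.95), Nfkb2 (15.7) and Tpst2 (7.63). It was the lowest for Slco2a1 (1.06) and Hes1 (0). Slco2a1 had 4.92 ± 0.408 FPKM in Has-tKO and 1.57 ± 0.640 FPKM in wildtype, and Nfkb2 had 28.5 ± 2.33 FPKM in Has-tKO and 12.4 ± 1.51 FPKM in wildtype (SD, n = 4 each). Hes1 had 1.11 to 1.86 FPKM in Has-tKO libraries, against 0 to 0.494 FPKM in wildtype libraries, and met the filter on low values through the Has-tKO libraries alone. No gene stood in more than 1 of the 3 sets.

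**Figure D5:**
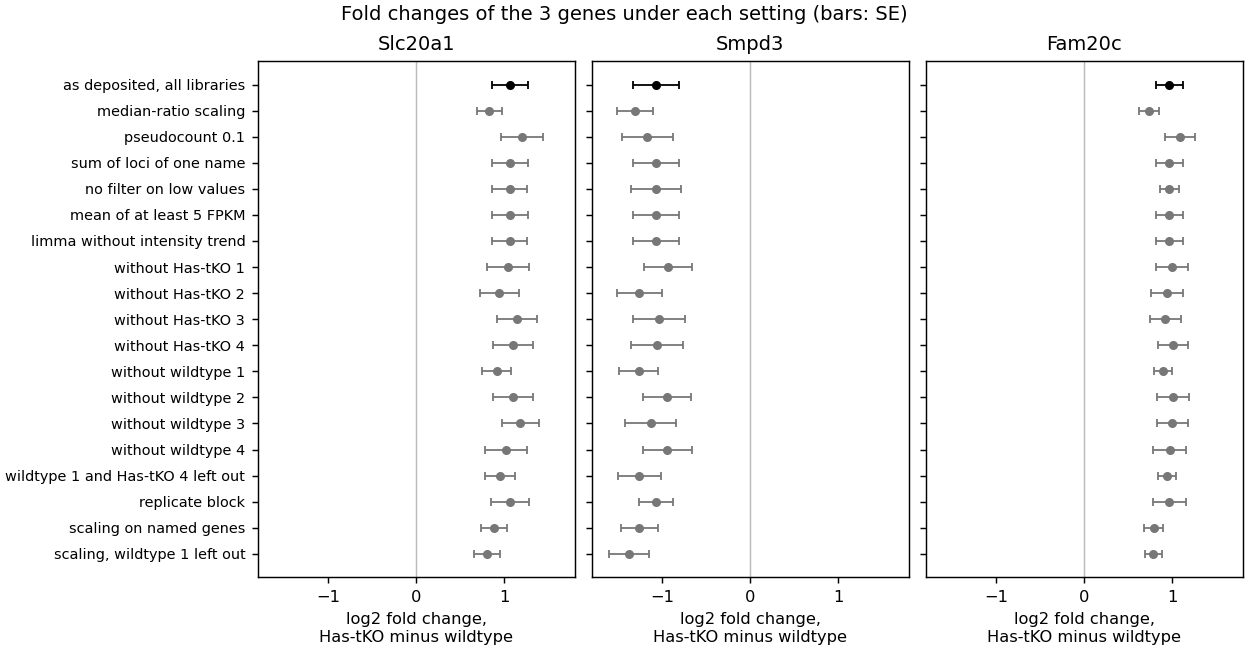
Log2 fold changes (Has-tKO minus wildtype) of Slc20a1, Smpd3 and Fam20c under each way of processing the values, with bars of 1 SE. The values run from 0.81 to 1.2 for Slc20a1, from -1.38 to -0.94 for Smpd3 and from 0.74 to 1.09 for Fam20c.

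The direction of each of the 3 genes was the same under all 18 alternative settings. With wildtype 1 left out, the library with the lowest size factor, the log2 fold changes were 0.91 for Slc20a1, -1.27 for Smpd3 and 0.90 for Fam20c. When wildtype 1 and Has-tKO 4 were dropped together they were 0.95 for Slc20a1, -1.26 for Smpd3 and 0.94 for Fam20c.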

How the data were processed

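RNA of 8 cell cultures, 1 per mouse, was sequenced after removal of ribosomal RNA, per the labels' protocols. The authors deposited 1 table of FPKM values with a gene name beside 49868 of 76557 loci. Per the submitters' processing notes they used HISAT2, StringTie, DESeq2, fastp and bcl2fastq, and the notes name GRCm39 and hg38 as builds. Versions and options are unknown, as is how transcripts were combined per locus. The columns were matched to libraries by the names in the header.

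Where several loci share a name (67 names), the locus with the highest mean was used. Low values showed no common step between libraries (at most 1.06% of loci below 0.3 FPKM shared a ratio within 0.02 on the log2 scale), so no reads were recovered and depth is unknown. Values were taken as log2(FPKM + 1). Named genes that reached 1 FPKM in 4 or more libraries were fitted on genotype with limma 3.58.1 in R 4.3.3, with an intensity trend. Tests were two-sided, p-values were adjusted over all these genes by Benjamini-Hochberg, and the threshold was 0.05. Scaled values were divided by median-ratio size factors from 19489 loci above 0 in every library. Fold changes are Has-tKO minus wildtype and understate changes of low genes. Single genes below the filter had exact permutation tests. The code was tested on simulated data.

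The 3 genes, the lists and the tests were chosen with earlier results of these data known. Genes named are the 3, their relatives and partners, up to 4 tested genes with the smallest p per list, the 5 nearest patterns per gene (1 result is not reported here) the genes near Has3 and marker genes that passed, plus Fgf23, Kl, Slc34a1, Slc34a2 and Slc34a3, named after their values were seen. Replicate numbers do not pair the libraries, which came from separate mice. Alternatives were other scalings, pseudocounts, filters, a fit without trend, a replicate block and leaving out libraries.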

Additional observations from a re-analysis of the deposited data

Results flagged for a closer look

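Among 79 genes named in the text, 158 groups of 4 libraries were examined for a library far from the other 3, and 7 were found, where chance gives about 1 in 20. In 4 of them wildtype 1 was the low library, which also had the lowest size factor. These were Slc20a2 (1.22 FPKM, others 3.06 to 3.23), Fam20a (0.704 FPKM, others 3.33 to 3.86), Dus2 (1.24 FPKM, others 2.90 to 3.21) and Pdf (3.34 FPKM, others 6.14 to 6.52). Sgms1 stood high in Has-tKO 1 (4.38 FPKM, others 4.07 to 4.11) and Mink1 low in Has-tKO 3 (9.24 FPKM, others 10.9 to 11.1). Has3 stood low in Has-tKO 4 (0.15 FPKM, others 0.576 to 0.663). Slc20a1, Smpd3 and Fam20c had no such library in either genotype.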

How the results depend on the processing

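The fold changes of Slc20a1 and Smpd3 moved by less than 1 SD of the libraries under all 18 alternatives. That of Fam20c moved by more under the 3 scalings, to 0.74, to 0.79 with size factors from named genes above 1 FPKM in every library, and to 0.79 with wildtype 1 left out as well, from 0.97. The last 2 settings were chosen after seeing the data. With single libraries left out, Slc20a1 ran from 0.91 to 1.18, Smpd3 from -1.27 to -0.94 and Fam20c from 0.90 to 1.01. The count of genes called over the whole table ran from 5 (without Has-tKO 1) to 349 (without wildtype 1), beside 176, and was 10 without wildtype 4, 40 without Has-tKO 4, 61 without Has-tKO 2, 68 without Has-tKO 3, 77 without wildtype 2 and 348 without wildtype 3. It was 111 with a pseudocount of 0.1, 2 with no filter on low values, when 27170 genes were tested, 320 with wildtype 1 and Has-tKO 4 left out, 279 with size factors from named genes and 342 with scaling and wildtype 1 left out. Scaling with all libraries gave 135 higher and 129 lower. The count of phosphate list genes called, 3 as deposited, ran from 1 (without Has-tKO 1) to 4 (without wildtype 1). It was 5 after scaling and with wildtype 1 and Has-tKO 4 left out, 1 with a pseudocount of 0.1, and by limma 0 with no filter (17 at an unadjusted p under 0.05) and 0 with a mean of at least 5 FPKM (10), which left 38 list genes and excluded Entpd1, Egr1 and Fosl1. The cause of these changes was otherwise not tested. Same-numbered libraries did not deviate together (correlations -0.08, 0.31, -0.12 and -0.06), and only number 2 correlated best with its own number. A fit with the replicate number as a block called 147 genes and 4 list genes, 1 higher (Egr1) and 3 lower (Alpl, Acp5 and Ibsp), while Entpd1 and Fosl1 had an adjusted p of 0.0601 each, with fold changes of 1.06, -1.07 and 0.97 for Slc20a1, Smpd3 and Fam20c. Depth is unknown, so values under 1 FPKM carry an unknown counting error.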
